A study of Rattus norvegicus with 18 samples.

Results

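The Rab GTPases are a large branch of the Ras-like small GTPases, and their genes were followed here in the hypothalamus of rats under chronic restraint stress, with and without voluntary running. Members were the genes whose rat symbol is Rab followed by a number and at most 1 letter, found through the transcript accession of the array probes. This gave 54 genes on 70 probes, of 16665 genes with a named probe and of 58 such Rab symbols in the RefSeq table. Rab22a, Rab37, Rab42 and Rab44 were matched by no probe. Of the 54 members, 51 were well above background often enough to be tested, among 13051 genes tested in all. Rab25 was above background on 0 of 18 arrays, Rab17 on 3 control, 1 stress and 3 exercised arrays, and Rab19 on 2, 3 and 1.

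RNA came from male Wistar rats aged 9 weeks, 1 rat per array and 6 rats per group, and all groups ate and drank freely. The rats of all groups were 5 weeks old at the start. The control group was left without restraint and without a wheel. The stress group spent 3 weeks under restraint, in sessions of 1 to 1.5 h on 5 days of each week. The group with stress and exercise went through that restraint and could also run in a wheel for 4 weeks, starting 1 week before the first session. There was no group with a wheel and no restraint, so the series holds no measure of exercise alone.

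A Rab protein is a switch that sits on a membrane when it holds GTP and is drawn into the cytosol when it holds GDP. Exchange factors load GTP, GTPase-activating proteins end the active state, and prenyl groups added by Rab geranylgeranyl transferase anchor the protein. Each Rab marks its own compartment: Rab1 and Rab2 the path from endoplasmic reticulum to Golgi, Rab5 early endosomes, Rab4 and Rab11 recycling endosomes, Rab7 late endosomes and lysosomes. Rab3 and Rab27 prepare synaptic vesicles and dense-core granules for release, the route by which hypothalamic neurons secrete their peptides.

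Promoters of 4 members are shown because the results turn on them. Rab3a and Rab3b are the secretory members that were higher in exercised than in control rats. Rab7a was lower and Rab8a higher in exercised rats, and both also differed between slides within the stress group. Against control, exercise and slides cannot be told apart. The stretches are the last 150 bases before the RefSeq start, in build GRCr8, 5′ to 3′ on the gene's own strand. Capitals mark matches, on either strand, to the GC box GGGCGG (read CCGCCC on the other strand), to TGACG, the core of the cyclic AMP response element (CGTCA on the other strand), and to the E-box CACGTG. No 2 matches in these stretches overlap. Rab3a lies at chr16:18722274-18722423 (minus strand), Rab3b at chr5:128858941-128859090 (plus strand), Rab7a at chr4:122064186-122064335 (minus strand) and Rab8a at chr16:17709413-17709562 (minus strand).
Rab3a: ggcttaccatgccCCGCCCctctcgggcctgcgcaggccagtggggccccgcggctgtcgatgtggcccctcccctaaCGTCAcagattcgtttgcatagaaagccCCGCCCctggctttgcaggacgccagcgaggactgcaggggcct
Rab3b: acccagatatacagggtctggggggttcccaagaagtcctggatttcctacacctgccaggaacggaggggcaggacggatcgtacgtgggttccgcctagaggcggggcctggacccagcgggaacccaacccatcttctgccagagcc
Rab7a: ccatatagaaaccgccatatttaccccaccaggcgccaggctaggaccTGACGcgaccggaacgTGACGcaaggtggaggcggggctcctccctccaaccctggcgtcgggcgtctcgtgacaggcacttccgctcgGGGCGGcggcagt
Rab8a: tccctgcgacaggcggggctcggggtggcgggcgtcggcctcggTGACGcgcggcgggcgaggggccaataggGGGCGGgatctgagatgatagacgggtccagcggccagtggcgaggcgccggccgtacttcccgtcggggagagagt

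Rab3a held 2 GC boxes and 1 TGACG core in this stretch, and Rab3b held none of the motifs. Rab7a and Rab8a each held 1 GC box, with 2 TGACG cores in Rab7a and 1 in Rab8a. Of the 54 members, 45 had a window in the table. Over the 250 bases before the start, a GC box was present in 35 of these 45 (77.8%), against 30.5% of all 33469 windows. The TGACG core was present in 15 of 45 (33.3%) against 18.2%, the E-box in 3 of 45 (6.7%) against 5.6%, and TATAAA in 0 of 45 against 12.9%. A match says only that the letters are there. The 33469 windows were not limited to genes on the array or above background, and the shares among such genes were not taken.

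A value below is a level, the log2 of the processed signal minus the 75th percentile of its own array, so that 0 is that percentile. Levels of different probes are not comparable. The arrays lay on 5 slides, and the first principal component (31.8% of the variance) parted the 10 arrays of slides 1 to 3 (control 1 to 6, stress 1 to 4) from the 8 arrays of slides 4 and 5 (stress 5 and 6, exercised 1 to 6). These 2 sets are called slide sets 1 and 2. Control and exercised rats never shared a slide set, so exercise and slide set cannot be told apart in that comparison. Markers of hypothalamic neurons (Avp, Oxt, Hcrt, Pmch, Agrp and Trh) were above background on all 18 arrays. The summed level of 6 oligodendrocyte markers ran from 9.50 to 9.68 in control, 9.48 to 9.68 in stress and 9.62 to 9.82 in exercised rats, and 3 of the 6 were higher in exercised than in control rats. Of 4 markers of oligodendrocyte precursors, 3 were higher (Cspg4, Olig1 and Olig2, list median 0.22). Of the 6 hypothalamic neuron markers Trh was lower (-0.30, limma adjusted p = 0.00941). The other 5 differed from control by more than 0, up to 0.25, with 0 called higher and a list median of 0.18.

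Rab3b, a vesicle Rab of secretory neurons and endocrine cells, was the only tested member whose values lay apart from control, in the same direction, in both stressed groups. Its level had a minimum of 1.71, a median of 1.75 and a maximum of 1.79 in control. In stress the same values were 1.94, 1.99 and 2.04, and in exercised rats 1.89, 2.0 and 2.23. Every stressed rat, with or without a wheel, lay above every control rat, and the 2 stressed groups overlapped. The difference was 0.24 (SE 0.05, 1.18-fold) for stress against control, which missed the threshold with a limma adjusted p of 0.139. For exercised against control it was 0.27 (SE 0.05, 1.20-fold), and Rab3b rose with a limma adjusted p of 0.000892.

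With the slide set as a covariate, the Rab3b difference from control was 0.22 for stress and 0.19 for exercise, with limma adjusted p of 0.191 and 0.477. The first of these is also the value among rats of slide set 1. With scan day as a block, the stress difference became 0.26 and passed with a limma adjusted p of 0.0274. Within scan day 1 it was 0.29 (adjusted p = 0.00307, 2 stress and 4 control rats), and within scan day 2 it was 0.21 (adjusted p = 0.160, 4 and 2 rats). The day 1 stress rats were 5 and 6, on slide set 2, and the day 1 control rats lay on slide set 1. That day 1 comparison called 19.3% of all genes, and the day 2 comparison 0%. No slide held both control and stress rats, so slide and stress cannot be told apart here.

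Markers of neighbouring tissue also varied between rats, and their relation to Rab3b was not computed. The summed level of 5 striatal markers was 2.54 to 2.72 in control, 2.62 to 3.12 in stress and 2.69 to 3.41 in exercised rats, and 3 of 5 were higher in exercised than in control rats. The 3 tested pituitary markers of 6 summed to between -0.84 and 4.73 in control, -1.11 and 5.50 in stress and -1.05 and 3.96 in exercised rats. Prl, a defining pituitary hormone gene, was at background (not well above it) on all 18 arrays. The part of striatal or pituitary tissue in the Rab3b difference was not tested. In dissected tissue, more cells of a type and more RNA per cell cannot be told apart.

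Rab3a, the main Rab3 of synaptic vesicles, had a minimum of 2.41, a median of 2.57 and a maximum of 2.63 in control. In stress these were 2.48, 2.64 and 2.71, and in exercised rats 2.66, 2.69 and 2.80. Exercised and control rats did not overlap, while stress rats spread across both. Rab3a rose in exercised rats against control by 0.15 (SE 0.05, 1.11-fold, limma adjusted p = 0.0279). This call ended without control 3, control 5 or exercised 2, with an adjusted p of at most 0.0647 and differences no lower than 0.13. It also ended with quantile normalization (0.13, adjusted p = 0.0510), no filter on dim probes (adjusted p = 0.0531), the replicate block (adjusted p = 0.0648), slide as a random block (adjusted p = 0.284) and no scaling (0.10, adjusted p = 0.373), and was lost in 10 of 30 alternatives in all. Of 5 general neuron markers, Rbfox3 (0.17, adjusted p = 0.0174) and Nefl (0.39, adjusted p = 0.0159) also rose in this comparison, with a list median of 0.16. The differences of the 5 markers ran from -0.04 to 0.39, and only 3 were above 0. Their summed level ran from 5.63 to 5.74 in control, 5.49 to 5.79 in stress and 5.70 to 5.86 in exercised rats, and their part in the Rab3a difference was not tested. Against control, stress differed by 0.07 (SE 0.05, limma adjusted p = 0.582).

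Rab3c and Rab3d did not pass in any comparison. Rab3c, a close relative of Rab3a on neuronal vesicles, ran from -0.12 to 0.44 in control (median 0.30), -0.14 to 0.45 in stress (median 0.09) and -0.14 to 0.22 in exercised rats (median 0.16). The groups overlapped throughout, and exercised minus control was -0.13 (SE 0.10, limma adjusted p = 0.386). Rab3d, better known from exocrine granules, ran from -2.97 to -2.73 in control (median -2.93), -3.08 to -2.75 in stress (median -2.97) and -3.11 to -2.74 in exercised rats (median -3.08). Its exercised minus control difference was -0.11 (SE 0.07, limma adjusted p = 0.294).

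Rab27a and Rab27b, which tether granules at the plasma membrane through effectors such as melanophilin and the synaptotagmin-like proteins, did not pass either. Rab27a ran from 0.07 to 0.18 in control (median 0.12), -0.02 to 0.26 in stress (median 0.09) and -0.07 to 0.16 in exercised rats (median 0.08). Its exercised minus control difference was -0.05 (SE 0.05, limma adjusted p = 0.488). Rab27b, the isoform of neurons and pituitary cells, ran from 1.56 to 1.84 in control (median 1.72), 1.72 to 1.82 in stress (median 1.79) and 1.61 to 1.74 in exercised rats (median 1.64). Its exercised rats lay low within the control range and mostly below the stress rats, with exercised minus stress at -0.11 (SE 0.04, limma adjusted p = 0.133).

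**Figure D1:**
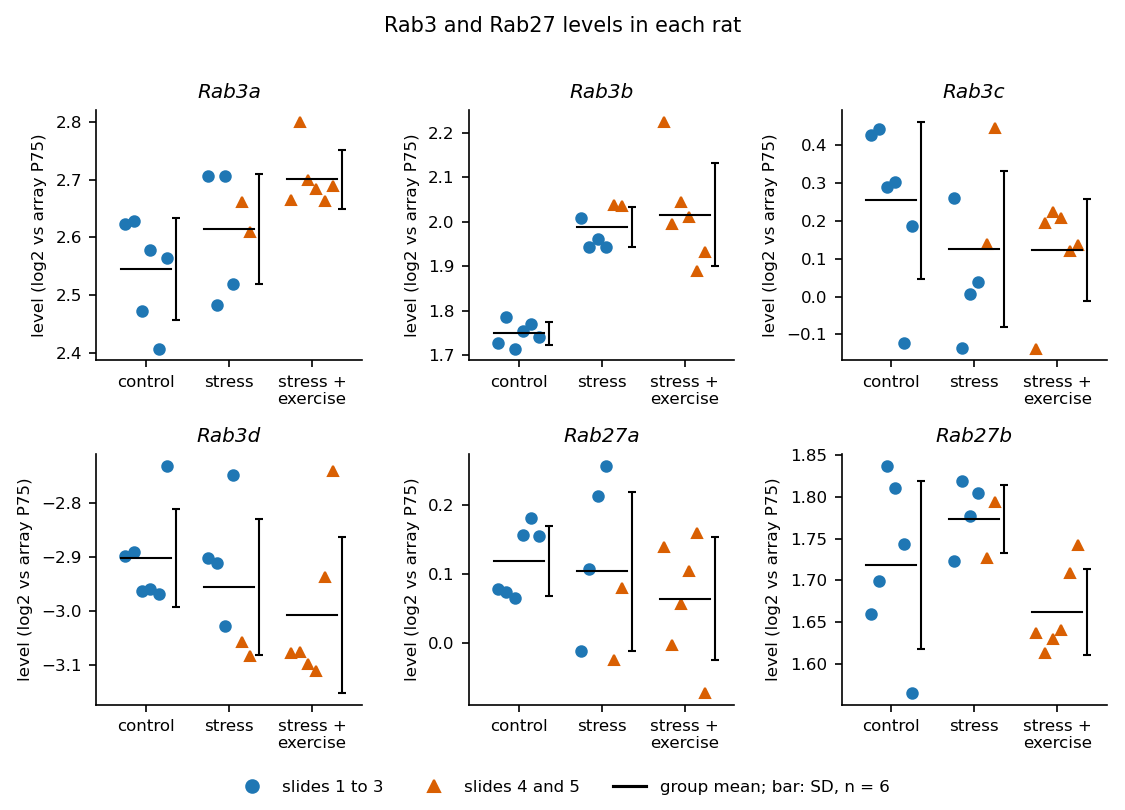
Levels (log2 relative to the 75th percentile of the array) of the Rab3 and Rab27 genes in each of 18 rats, by group, with the group mean as a line and the SD (n = 6) as a bar, and the symbol giving the slide set. Rab3b lies between 1.71 and 1.79 in control and at 1.89 or more in every other rat, while the groups of Rab3c, Rab3d and Rab27a overlap.

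Stress and control rats were compared to see what restraint left in the hypothalamus. By limma, 0 of 51 members rose and 0 fell, against a background of 0% higher and 0% lower among 13051 genes. At an unadjusted p under 0.05 there were 6 members, against 1596 of all genes. The median difference of the members was 0.01, beside 0.02 over all genes tested. The 6 and 6 values did not overlap for 2 members, Rab3b above and Rab2a below control, where 1.03% of all genes did not overlap in either direction.

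The members with the smallest p beside Rab3b are given as values. Rab26, tied to synaptic vesicles and granules, had a minimum of 3.79, a median of 4.05 and a maximum of 4.19 in control and 3.99, 4.14 and 4.34 in stress, a difference of 0.14 (SE 0.07). Rab30, a Golgi Rab, had values of -2.67, -2.31 and -2.24 in control and -2.26, -2.23 and -1.53 in stress, a difference of 0.28 (SE 0.11). Both pairs of groups overlapped, and stress rat 1 held the highest Rab30 value.

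On the lower side stood Rab2a, Rab9a and Rab21. Rab2a, which tethers vesicles at the early Golgi, had a minimum of 3.04, a median of 3.19 and a maximum of 3.31 in control against 2.95, 2.98 and 3.04 in stress. Its difference was -0.20 (SE 0.07, limma adjusted p = 0.348). Rab9a, which returns receptors from late endosomes to the trans-Golgi, differed by -0.14 (SE 0.05, adjusted p = 0.294). Rab21, an endosomal Rab of integrin traffic, differed by -0.13 (SE 0.05, adjusted p = 0.337). Within slide set 1, where 4 stress rats met all 6 control rats, limma called 0 members. In that comparison 7 members had an unadjusted p under 0.05, beside 1247 of all 13051 genes.

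Against control, the rats with stress and exercise showed the widest set of changes: 10 of 51 members rose and 4 fell by limma (19.6% and 7.84%), beside a background of 18.1% higher and 9.84% lower among all genes tested. The members' shares lie near the background in both directions. The values did not overlap for 11 members, where 18.6% of all genes did not. The largest rise was 0.42 and the largest fall 0.39 on the log2 scale, and the median over the members was 0.02, beside 0.05 over all genes. Control and exercised rats lay on different slide sets, and once the set entered the model limma called 0 members (8 at an unadjusted p under 0.05). Without scaling between arrays, 0 rose and 5 fell, a split of 0% higher in place of 71.4%.

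Among Rabs of the early secretory path, Rab1b and Rab2a fell and Rab33a, Rab36 and Rab43 rose, 3 higher (23.1%) and 2 lower (15.4%) of the 13 tested, where 18.1% and 9.84% of all genes were. Rab1b, which admits vesicles from the endoplasmic reticulum to the Golgi, had a minimum of 4.39, a median of 4.43 and a maximum of 4.5 in control and 4.19, 4.24 and 4.26 in exercised rats. The groups lay apart, with a difference of -0.21 (SE 0.03, limma adjusted p = 0.000601). Rab2a was at 2.66, 2.73 and 3.17 in exercised rats, 1 of which reached the control range. Its difference was -0.38 (SE 0.07, limma adjusted p = 0.00185). With the slide set in the model this difference was -0.34 (adjusted p = 0.463), and with scan day added it was -0.08 (adjusted p = 0.833). Within scan day 1 it was -0.15 (adjusted p = 0.153) and within scan day 2 -0.48 (adjusted p = 0.000276).

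The other 3 called members of that path rose. Rab33a, a Golgi Rab of neurons, differed by 0.20 (SE 0.06, limma adjusted p = 0.0139), and Rab36, a Golgi Rab that places late endosomes, by 0.24 (SE 0.06, adjusted p = 0.0125). Rab43, which acts between endoplasmic reticulum and Golgi, had values from -4.67 to -3.98 in control and -4.23 to -3.62 in exercised rats, and the groups overlapped. It rose by 0.42 (SE 0.15, adjusted p = 0.0456), but 13 of 18 single arrays ended that call when left out, all but control 1, stress 4, stress 6, exercised 1 and exercised 2. With normexp background correction the Rab43 difference was 0.11 and did not pass.

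Of the 5 tested late endosomal Rabs, 1 rose and 2 fell, beside 18.1% higher and 9.84% lower over all genes. Rab7a, the switch for fusion of late endosomes with lysosomes, had a minimum of 1.03, a median of 1.16 and a maximum of 1.25 in control and 0.63, 0.77 and 0.85 in exercised rats, with a gap between them. It fell by 0.39 on the log2 scale (SE 0.07, limma adjusted p = 0.000806). Rab9a was at 0.82, 0.90 and 0.98 in control and 0.56, 0.66 and 0.76 in exercised rats, again apart, and fell by 0.24 (SE 0.05, adjusted p = 0.00152). Rab24, an unusual Rab linked to autophagy, was at 2.22, 2.26 and 2.36 in control and 2.47, 2.55 and 2.70 in exercised rats, and rose by 0.30 (SE 0.06, adjusted p = 0.00248).

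At the cell surface and on recycling membranes, Rab8a and Rab4a rose. Rab8a, which carries cargo from the trans-Golgi to the plasma membrane and the cilium, had a minimum of 1.78, a median of 1.84 and a maximum of 1.88 in control and 1.98, 2.03 and 2.13 in exercised rats. The groups lay apart, and Rab8a rose by 0.20 (SE 0.04, limma adjusted p = 0.00214). Rab4a, of the fast recycling route, rose by 0.17 (SE 0.05, adjusted p = 0.0206), from 3.90 to 4.08 in control to 4.12 to 4.23 in exercised rats. Rab26 rose by 0.23 (SE 0.07, adjusted p = 0.0249), a call that ended without control 1, control 2, exercised 5 or exercised 6, with an adjusted p of at most 0.0594 and differences no lower than 0.19.

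The remaining members passed in no direction, apart from Rab29, a Rab of the trans-Golgi and lysosome-related organelles that rose by 0.16 (adjusted p = 0.00971). The 6 tested early endosomal members, with Rab5a, Rab5b, Rab5c and Rab21 among them, differed by -0.13 to 0.04. The other 7 of the 8 tested members of Golgi to surface traffic and the other 6 of the 7 recycling members lay between -0.09 and 0.11. Rab38, which passed the filter through the stress group alone, had an SD of 0.92 in stress rats, the largest within-group SD among the 51 tested members.

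**Figure D2:**
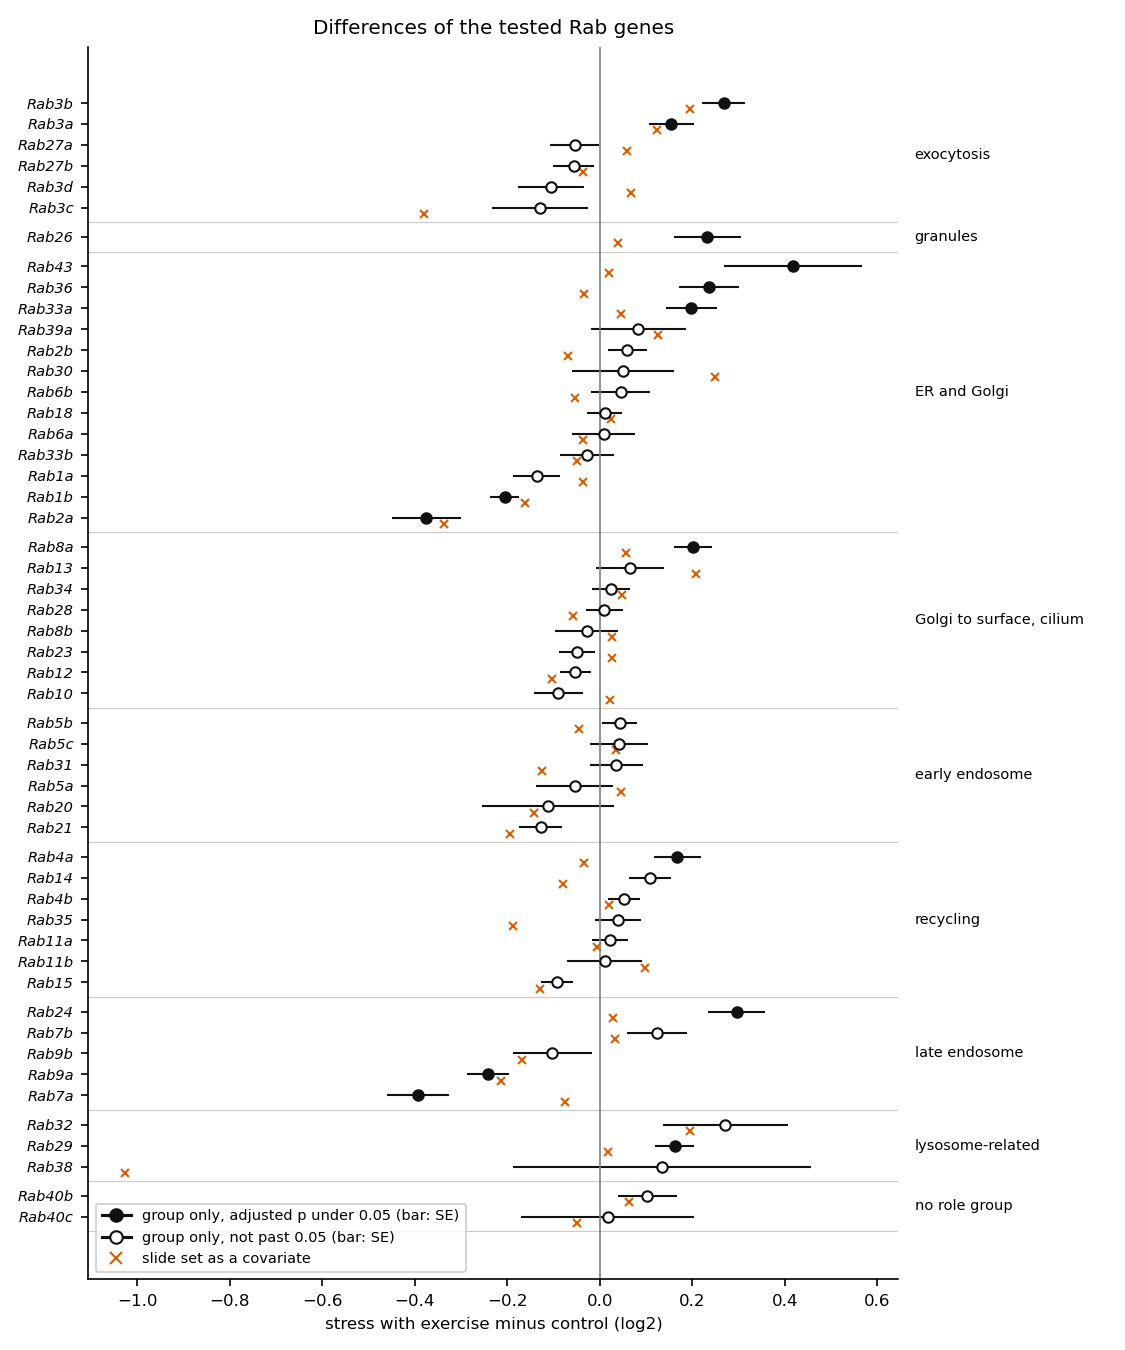
Stress with exercise minus control (log2) for the 51 tested Rab genes, by role, from a model with group only (circles, filled where the limma adjusted p is under 0.05, bars showing SE) and after adding the slide set (crosses). The crosses of Rab24, Rab36, Rab4a and Rab7a lie near 0, while those of Rab1b (-0.16), Rab2a (-0.34), Rab9a (-0.21) and Rab3b (0.19) stay closer to their circles. No member passed with the slide set in the model.

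Adding the wheel to the same restraint was tested by setting exercised against stress rats. Rab8a rose, by 0.20 (SE 0.04, 1.15-fold, limma adjusted p = 0.0369), and Rab1b and Rab7a fell, by 0.14 (SE 0.03, adjusted p = 0.0386) and 0.29 (SE 0.07, adjusted p = 0.0387). These 3 of 51 members (1.96% higher, 3.92% lower) stand beside a background of 1.6% higher and 1.67% lower. Rab8a in stress had a minimum of 1.76, a median of 1.82 and a maximum of 1.95, all below the exercised rats, and Rab1b was at 4.32, 4.37 and 4.43, all above them. Rab7a was at 0.84, 1.13 and 1.19, and its lowest stress rats, 5 and 6, reached into the exercised range. Values did not overlap for 2 members, Rab8a and Rab1b, where 1.76% of all genes did not.

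These 3 calls were close to the threshold. Leaving out 1 array gave between 0 and 7 called members. The count was 0 without control 4, control 6, stress 1, 2, 3 or 4, or any exercised rat, and 1 without control 1 or control 5. It was 6 without stress 5 and 7 without stress 6, and 11 with both left out. The whole array moved alike: of 31293 tested probes, 1169 were called with all arrays and 4630 without stress 5. Without stress 6 it was 4384 probes, and with both left out 8200. Within slide set 2, limma called 0 of 51 members, and 4 had an unadjusted p under 0.05, beside 884 of all 13051 genes. Rab8a was at 0.10, Rab1b at -0.11 and Rab7a at -0.08, but only 2 stress rats stood there against 6 exercised.

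**Figure D3:**
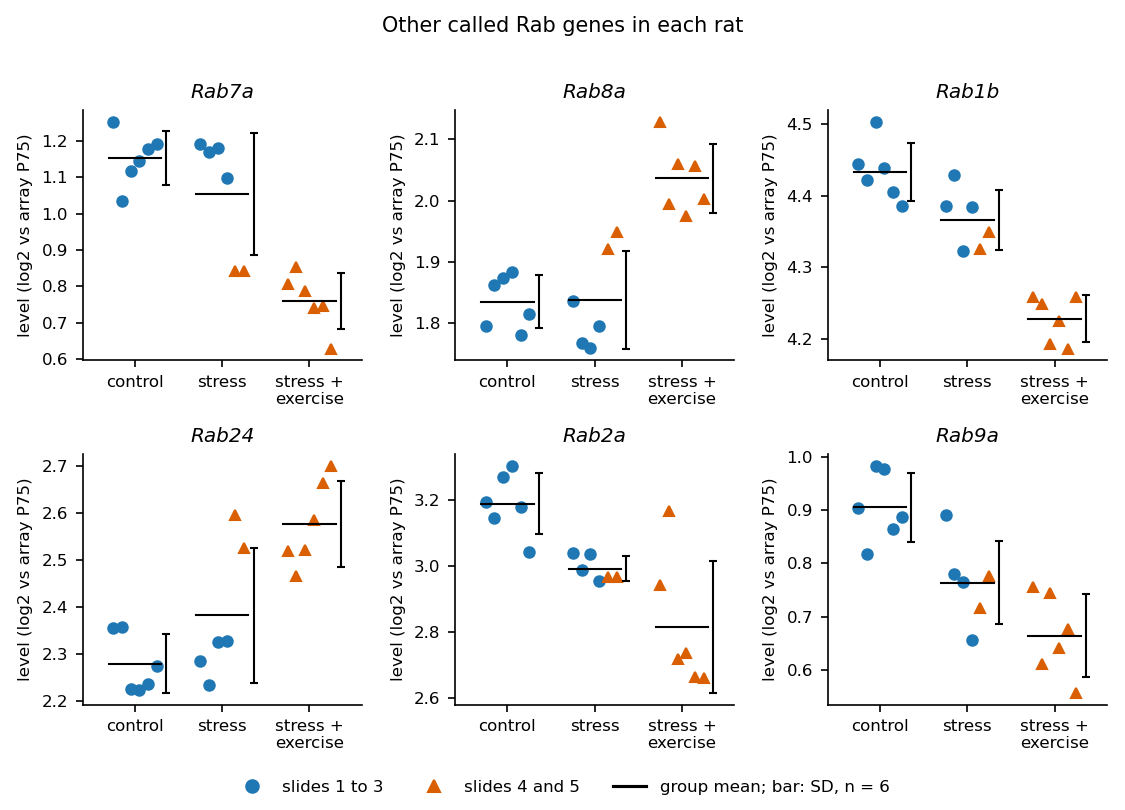
Levels (log2 relative to the 75th percentile of the array) of 6 called Rab genes in each of 18 rats, with the group mean as a line, the SD (n = 6) as a bar and the symbol giving the slide set. For Rab7a and Rab24 stress rats 5 and 6 sit with the exercised rats, while for Rab1b, Rab2a and Rab9a they sit among the other stress rats.

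Stress rats 5 and 6, which share slide set 2 with the exercised rats, were set against stress rats 1 to 4, which had the same treatment. The 2 rats were also scanned on day 1 and the other 4 on day 2, so this comparison is of scan days as well as of slides. Pituitary markers differed too: the sum of the 3 tested was 4.33 to 5.50 in stress 1 to 4, and -1.01 and -1.11 in stress 5 and 6. By limma the pituitary markers Cga and Lhb were lower in stress 5 and 6. The part of pituitary tissue in the differences below was not tested. Rab14, Rab24, Rab35, Rab36, Rab4a and Rab8a were higher and Rab7a was lower by limma, 6 and 1 of 51 members (11.8% and 1.96%), against a background of 9.66% higher and 6.8% lower. Rab7a was at 1.10 to 1.19 in stress 1 to 4 and 0.84 in both others, a difference of -0.32 (SE 0.06, adjusted p = 0.00206). Rab24 was at 2.24 to 2.33 and 2.53 to 2.59, a difference of 0.27 (SE 0.07, adjusted p = 0.00935). Rab8a was at 1.76 to 1.84 and 1.92 to 1.95, a difference of 0.15 (adjusted p = 0.0491).

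The other members higher on slide set 2 differed by 0.27 (Rab36, adjusted p = 0.0150), 0.23 (Rab35, adjusted p = 0.00466), 0.20 (Rab4a, adjusted p = 0.0204) and 0.19 (Rab14, adjusted p = 0.0169). Rab35 guides fast recycling and Rab14 moves cargo between Golgi and endosomes. Each array left out in turn kept Rab7a and Rab35 past the threshold. The calls of Rab24 and Rab36 ended without stress 5, of Rab14 without stress 5 or 6, and of Rab4a without stress 2, 5 or 6. The call of Rab8a ended without any of 15 arrays, all but control 5, stress 1 and exercised 1. The count was 2 without stress 5. With scan day as a block, 4 members were higher and 4 lower: Rab24, Rab35, Rab4a and Rab7a stayed past the threshold, Rab10, Rab11b, Rab13 and Rab43 entered, and Rab36 (adjusted p = 0.10), Rab14 (adjusted p = 0.158) and Rab8a (adjusted p = 0.185) were lost.

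Rab1b (-0.04), Rab2a (-0.04), Rab9a (-0.03), Rab3a (0.03) and Rab3b (0.07) had small differences between the stress rats of the 2 slide sets, with limma adjusted p from 0.509 to 0.866. Slide set and scan day differ together here, so a small difference does not give the part of the slides alone. With both in the model, exercised minus control was -0.14 (Rab1b), -0.08 (Rab2a), -0.15 (Rab9a), 0.08 (Rab3a) and 0.28 (Rab3b). None of these passed the threshold. Over the 51 members, the slide-set difference and the exercised minus control difference had the same sign in 38. The Pearson correlation across these genes was 0.49 and Spearman's 0.61, and without Rab38 they were 0.65 and 0.60. The comparisons share no array but share the slide sets, and genes are not independent replicates. How much of each exercise difference belongs to the slides was not tested beyond these values.

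**Figure D4:**
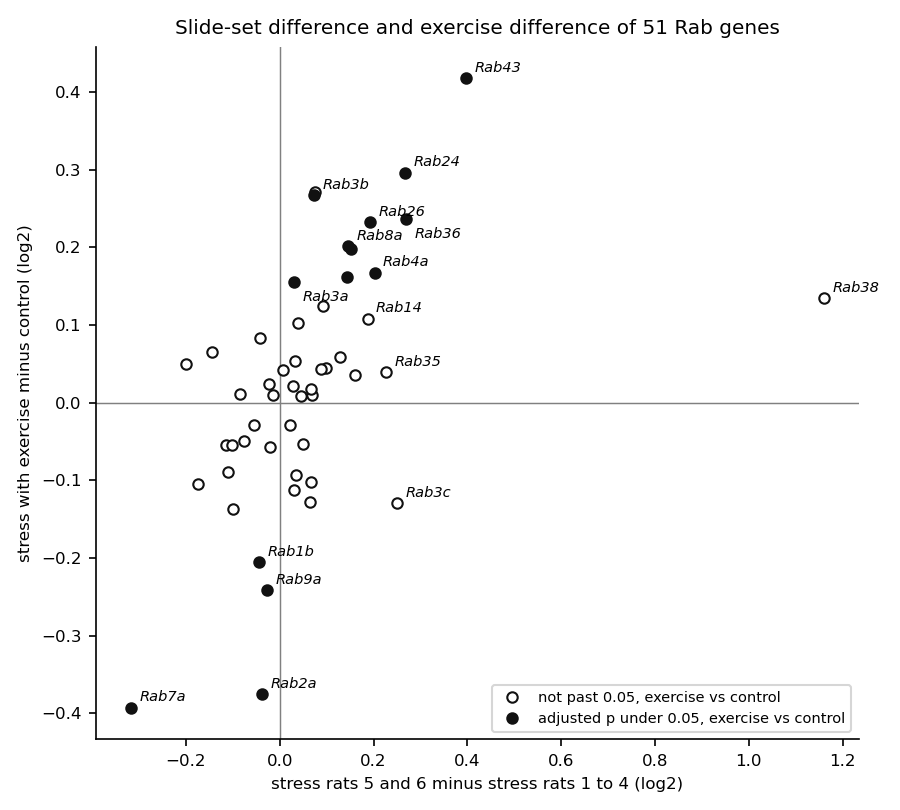
For 51 Rab genes, stress rats 5 and 6 minus stress rats 1 to 4 (x axis, log2) against stress with exercise minus control (y axis, log2), with filled circles for an exercise against control limma adjusted p under 0.05. Rab7a lies low on both axes and Rab24 and Rab36 high on both, while Rab1b, Rab2a and Rab9a lie near 0 on the x axis.

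Scan day gives another view, since each day held rats of all 3 groups. Within day 1, 4 control, 2 stress and 2 exercised rats were scanned, and within day 2, 2, 4 and 4. Stress against control called 11 members (21.6%) on day 1, where the stress rats were 5 and 6, and 0 on day 2, beside 19.3% and 0% of all genes. Exercised against stress called 0 on day 1, where all 4 arrays shared a slide, and 14 (27.5%) on day 2, beside 0.00766% and 28.1% of all genes. Exercised against control called 12 (23.5%) on day 1 and 10 (19.6%) on day 2, beside 25.2% and 21.9%. Each share of members lies near that of all genes. On both days this last comparison called Rab3b, Rab7a, Rab8a, Rab1b, Rab24 and Rab9a. On each day its control rats lay on slide set 1 and its exercised rats on slide set 2, so neither day parts exercise from slide set. These counts come from 1 limma fit with a term for each group on each day, and 2 to 4 rats per cell.

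Some genes have several probes that disagree. Rab1b has another, dimmer probe that rose in exercised rats against control (0.22, adjusted p = 0.0472), opposite to the brighter one. Of 3 probes for Rab14, 1 rose (0.17), the brightest did not pass (0.11) and the dimmest fell by 0.22, and the same probes differed by 0.25, 0.19 and -0.23 between the slide sets. For Rab4b the dimmer probe rose (0.23) and the brighter did not pass (0.05), and for Rab23 the dimmer fell by 0.20 and the brighter did not pass (-0.05). Between the slide sets the brighter Rab35 probe was higher by 0.23 and the dimmer lower (-0.60). The 2 probes of Rab27b differed by -0.06 and 0.13 in exercised against control rats, and neither passed.

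The machinery that loads, anchors and switches off Rabs was measured beside them. In stress against control, limma called 0 genes in each of the 5 lists below. In exercised against control rats, the counts in each list stand beside 18.1% of all genes higher and 9.84% lower. Once the slide set was in the model, 0 genes of any of the 5 lists passed (lowest adjusted p = 0.227). Of 8 tested prenylation and recycling genes Rabggta rose (0.33, adjusted p = 0.000686) and Rabggtb and Chm fell. Rabggta and Rabggtb encode the paired subunits of the geranylgeranyl transferase, and Chm the escort protein that presents Rabs to it. Rabggtb fell from a mean of 4.01 ± 0.06 to 3.65 ± 0.06 (SD, n = 6), a difference of -0.37 (SE 0.05, adjusted p = 0.000578), and it also fell against stress rats (-0.26, adjusted p = 0.0369). Chm was at 1.83 ± 0.13 and 0.95 ± 0.14 (SD, n = 6), a difference of -0.88 (SE 0.18, adjusted p = 0.00223). With the slide set as a covariate the differences were 0.07, -0.14 and 0.14 for Rabggta, Rabggtb and Chm, and their adjusted p were above the threshold.

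Of 20 tested exchange factors, 5 rose (25%) and 2 fell (10%) in exercised against control rats. Dennd5a rose by 0.25 (adjusted p = 0.000676), Mon1a, a partner in the complex that activates Rab7, by 0.38 (adjusted p = 0.000732), and Hps4 by 0.27 (adjusted p = 0.00197). Mon1a was also higher than in stress rats (0.31, adjusted p = 0.0369). Of 22 tested GTPase-activating proteins, 6 rose (27.3%) and 1 fell (4.55%), with Tbc1d10b at 0.30, Tbc1d17 at 0.29 and Sgsm2 at 0.23.

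Of 10 tested secretory effectors, 3 rose (30%) and 1 fell (10%). Rph3a, the rabphilin that binds Rab3a on vesicles, rose by 0.23 (SE 0.06, adjusted p = 0.00568), and Rph3al by 0.39 (adjusted p = 0.0326). Mlph, the melanophilin that links Rab27a to myosin, fell by 0.52 (SE 0.11, adjusted p = 0.00253), and its difference was -0.02 once the slide set was in the model. Of 27 tested effectors of other Rabs, 8 rose (29.6%) and 3 fell (11.1%), with Lrrk2 at 0.27, Myo5a at 0.40 and Rilpl1 at 0.36. The median exercised minus control difference was -0.01 for prenylation, 0.10 for exchange factors, 0.01 for GTPase-activating proteins, 0.17 for secretory effectors and 0.07 for the other effectors, beside 0.05 over all genes.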

How the data were processed

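Per the file headers, the deposited intensity of each spot is the processed signal of Agilent Feature Extraction 12.1.0.3, after background and spatial correction; the submitters' processing notes name version 9.1. The authors' matrix intensity, used as an alternative, is that signal times 1 constant per array. From this signal log2 values were taken, and the 75th percentile of each array (over its non-control probes) was subtracted. Control spots and outlier spots (297 to 580 per array) were left out and spots of 1 probe averaged; no spot was saturated. Each array held 45598 probes, of which 63.6% to 77.8% were well above background, and the number of arrays limits the precision. Probes were named through their accession in a RefSeq table of build GRCr8 (21220 had 1 symbol, 24378 none), and the arrays were designed on rn4, so no probe positions are given.

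Tests covered the 31293 probes that stood well above background on 5 or more of the 6 arrays of some group, with limma 3.58.1 (lmFit and eBayes, R 4.3.3) on all 18 arrays, group alone in the model, and Benjamini-Hochberg adjustment over all tested probes; p-values are two-sided. A gene was represented by its brightest probe. Differences, SEs and folds are on the log2 scale of these values. The slide-set model has the set (slides 1 to 3 against 4 and 5, from the headers) as a covariate. Named were the Rab3 and Rab27 genes, called members (up to 8 per direction and comparison), otherwise the 3 per direction with the smallest p, and up to 3 called genes per regulator list. The members and lists were chosen with earlier results of these data known. For the normexp alternative the median spot signal stood in for the mean signal. The fit was also run on simulated data with independent noise on each array. The simulation left out the correlation between arrays of 1 slide (0.37 in these data), so it does not show how the fit behaves under it. Same-numbered rats did not deviate together (correlations from -0.245 to 0.187, over 0.1 in 4 of 18 pairs), so the numbers were not taken as pairs.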

Additional observations from a re-analysis of the deposited data

Results flagged for a closer look

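Among 63 groups of 6 rats checked for the named members, 5 held a rat far from the others by Dixon's ratio, where chance gives about 1 in 20. Rab3a was 2.80 in exercised rat 2, next to 2.70, and Rab3c was -0.14 in exercised rat 1, next to 0.12. Rab3d was -2.73 in control rat 6, next to -2.89. Rab30 was -1.53 in stress rat 1, next to -2.17, and Rab33a was 1.29 in exercised rat 1, next to 1.18.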

How the results depend on the processing

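Exercised against stress rats gave 3 called members, and 0 with no filter on dim probes (10 at an unadjusted p under 0.05), with slide set as a covariate (4), slide as a random block (6), slide set and scan day together (7) or the replicate block (13), and 11 without both stress rats of slide 4, an alternative chosen after seeing the data. Exercised against control gave 14, and 5 with no scaling, 3 with slide as a random block and 0 with slide set (8 unadjusted) or slide set and scan day (7) as covariates; the replicate block gave 11. Stress against control gave 1 (Rab3b) with scan day as a block. The slide-set difference within stress gave 7, 0 with no scaling (6 unadjusted) 4 with quantile normalization and 8 with scan day as a block (4 higher and 4 lower, in place of 6 and 1). Leaving out each array gave 0 to 7 for exercised against stress, 12 to 16 for exercised against control, 2 to 8 for the slide-set difference and 0 for stress against control. Against control, the exercised difference changed sign with slide set for Rab36 (-0.034) and Rab4a (-0.035), and with slide set and scan day for Rab24 (-0.13), Rab43 (-0.40), Rab4a (-0.11) and Rab7a (0.0036); the cause was not tested. No sign of a called named member changed under no scaling or quantile normalization. With normexp, the authors' matrix values, any probe of the gene, or probes above background on all 18 arrays, counts of called members stayed within 1.5 times. Signal over background limits dim members such as Rab20, Rab32, Rab38 and Rab43, each above background on fewer than 18 arrays, and the 3 untested members.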
